A study of Mus musculus with 2 samples.

Results

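RNAs that stay mostly in the nucleus were followed across the cells of injured mouse lungs: *Malat1*, *Neat1*, *Kcnq1ot1*, *Airn*, *Meg3*, *Miat*, *Snhg11* and *Pvt1*. They are 8 of the 31053 genes in the deposited matrices and were taken by symbol, each matching 1 row in both. The list was chosen by the UMI counts of these genes in these libraries, so levels are given as a description and no value carries a test. Lung cells came from *Pclaf* WT and *Pclaf* KO mice of 8 to 10 weeks, 1 week after instillation of bleomycin, a drug that injures the alveolar lining (1.35 U/kg in the deposited design). The *Pclaf* KO is a germline allele of an earlier established strain, all mice of both groups received bleomycin, and the number of mice pooled per library is not given in the sources used here. Cells were to be sorted as CD31-, CD45- and EpCAM+, that is as epithelium free of endothelial and immune cells, and 16000 cells per genotype were loaded for 3′ droplet sequencing. There is 1 library per genotype, so every interval below covers counting error only and every difference between genotypes is a difference between 2 libraries.

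Most messenger RNAs leave the nucleus after splicing, whereas these long noncoding RNAs act or remain there. *Malat1* sits in nuclear speckles, bodies that store splicing factors, and *Neat1* builds paraspeckles, bodies that hold proteins such as SFPQ and NONO. *Airn*, *Kcnq1ot1* and *Meg3* are imprinted, that is made from 1 parental copy. *Airn* and *Kcnq1ot1* are made antisense to a coding gene from the paternal copy and silence neighbours in cis, and *Meg3* is made from the maternal copy of the *Dlk1* to *Dio3* domain. *Pvt1* lies beside *Myc*, *Snhg11* is a host gene of small nucleolar RNAs, and *Miat* is best known from retina, brain and heart. In droplet data the share of such RNAs in a cell is often read beside its mitochondrial share.

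The 8 loci differ in build, in the annotation of GRCm38 (GENCODE vM21). *Malat1* (ENSMUSG00000092341, chr19:5795690-5802672, minus strand) and *Neat1* (ENSMUSG00000092274, chr19:5824708-5845478, minus strand) lie next to each other, and their longest transcripts, of 6983 and 20771 bases, each have 1 exon. *Kcnq1ot1* (ENSMUSG00000101609, chr7:143203458-143296549, minus strand) is 1 exon of 93092 bases inside *Kcnq1*, on the strand opposite to it. *Airn* (ENSMUSG00000078247, chr17:12741311-12860136, plus strand) spans 118826 bases opposite to *Igf2r* and *Mas1*, and its longest transcript keeps 1375 bases in 2 exons. *Meg3* (ENSMUSG00000021268, chr12:109541001-109571726, plus strand) has a longest transcript of 14548 bases in 5 exons, and *Miat* (ENSMUSG00000097767, chr5:112213228-112229395, minus strand) of 9163 bases in 7. *Pvt1* (ENSMUSG00000097039, chr15:62037986-62378096, plus strand) spans 340111 bases with 3319 bases in 10 exons. *Snhg11* (ENSMUSG00000044349, chr2:158375638-158386145, plus strand) has 5864 bases in 5 exons and carries the biotype protein coding in this annotation. Whether reads in introns were counted, and whether counting used strand, is not given in the sources used here. Without strand, reads of *Kcnq1ot1* and *Kcnq1*, or of *Airn* and *Igf2r*, could not be told apart.

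The kit primes reverse transcription on runs of A, which the poly(A) tail provides and which a long transcript can also hold inside, so the stretch richest in A of each longest transcript is shown because it is where such priming could start. Each line gives 30 bases of the reference genome from 5′ to 3′ on the transcribed strand, with the 20-base window richest in A in capitals.
Malat1: gctttAAAAAAAAAAAAGCAAAAGAcgctg
Neat1: acaagAACAAAAAACAAAGAAAAAAccaag
Kcnq1ot1: gtctcAAAAAAAAAAAAAAAAAAAAaagat
Meg3: agaccAAAAAAAAAAAAAAAACAAAaacaa
Snhg11: caaatAAACAAAACAAAACAAAAAAtaaat
Pvt1: gatatAAAACAAAATAAAACAAGAAtgaag
Miat: cttttGGAAAGAAATTAAAGCAAAAttcaa
Airn: cgtccATAAGAACATTACACAAAGAcctgg
The window of *Malat1* (chr19:5795975-5796004) holds 17 A and lies 290 bases before the 3′ end, that of *Neat1* (chr19:5834093-5834122) also holds 17 A but lies 9390 bases before it. All 20 bases are A in *Kcnq1ot1* (chr7:143281159-143281188), 77706 bases before its end. The windows of *Meg3* (chr12:109545812-109545841), *Snhg11* (chr2:158381577-158381606) and *Pvt1* (chr15:62313390-62313419) hold 19, 17 and 16 A. Those of *Miat* (chr5:112218193-112218222) and *Airn* (chr17:12829891-12829920) hold 13 and 12. Counting separate stretches in which some 20-base window has at least 16 A, *Kcnq1ot1* has 16, *Meg3* 4, *Snhg11* 3, *Pvt1* 2, *Malat1* and *Neat1* 1 each, and *Airn* and *Miat* 0. Where the reads of a library start is not given by the counts, so no stretch is called a priming site here.

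The targeted gene was checked first. *Pclaf*, which encodes a PCNA-associated factor of dividing cells, was at 39.3 CPM (UMIs per 1000000 UMIs; 3763 UMIs) in the WT library and at 5.19 CPM (529 UMIs) in the library labelled *Pclaf* KO. In cycling cells of the epithelium it was at 171 CPM (23 UMIs, 25 cells) and 139 CPM (237 UMIs, 179 cells), which goes against the label, although the deleted segment of the allele is not given here and 3′ tags outside it would check nothing. That library is therefore called the library labelled KO, or KO for short. After removing barcodes with 200 genes or fewer, 5000 or more, or at least 20% mitochondrial UMIs, 30187 of 30669 WT and 15637 of 17172 KO barcodes remained, with a median of 2127 and 5957 UMIs. More barcodes remained in WT than the 16000 cells loaded, and 163 barcodes, 138 of them kept, occur in both libraries. Epithelial cells were 6.74% of WT and 72.6% of KO cells, immune cells 46.9% and 4.07%, endothelial cells 28.9% and 3.03%, and mesenchymal cells 13.2% and 18.9%, so by these classes most WT cells were not of the labelled epithelium. *Epcam*, an epithelial surface marker, was seen in 44.4% and 62.2% of epithelial cells at a median of 4260 and 6622 UMIs, against 4.88% and 4.71% of immune cells at 2183 and 2146 UMIs. *Sftpc*, a surfactant gene of AT2 cells, was seen in 31.6% of immune cells of WT and 97.8% of those of KO (253 and 2108 CPM, against 54649 and 105448 in the epithelium), so a UMI of it does not mark a cell as AT2 here. The paper's methods state that male mice were used, whereas *Xist* and Y-linked UMIs were both present in each library (*Xist* 254 and 498 CPM). Because of these mixtures, members were compared within classes of cells, named with the suffix "-like" from marker genes after clustering without the members.

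*Malat1* made up most of what was counted. It was at 8050 CPM in WT (770266 UMIs, 95% interval 8032 to 8068) and at 14355 CPM in KO (1463536 UMIs), or 93.2% and 93.7% of all UMIs of the 8 RNAs. *Neat1* followed with 318 and 595 CPM, *Airn* with 129 and 201, *Kcnq1ot1* with 65.3 and 87.6, and *Pvt1* with 62.3 and 15.4. *Meg3* (5.14 and 13.4 CPM), *Snhg11* (4.39 and 45.1) and *Miat* (0.219 and 0.147, from 21 and 15 UMIs) were rare. CPM is not corrected for length, so these are numbers of molecules tagged and not an order between genes. Since the libraries hold different mixtures of cells, the values below are per class.

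Named classes of at least 50 cells numbered 24 in WT and 18 in KO, and rankings of classes here and below cover these only. Among the named classes *Malat1* was most abundant in alveolar lining cells with AT1 or intermediate markers, and in smooth muscle-like and pericyte-like cells. Krt8+ transitional-like cells, the intermediate between the secretory AT2 and the flat AT1 cell, were at 26056 CPM in WT and 26303 in KO. AT1-like cells were at 16261 and 30907 CPM, smooth muscle-like cells at 17046 and 25667, and pericyte-like cells at 14703 and 24434. The smooth muscle-like class joined unlike clusters. One, led by smooth muscle markers (160 WT and 60 KO cells), was at 12005 CPM of *Malat1* over both libraries. The other, without such markers among its leading genes (122 and 140 cells), was at 30874 CPM. Its share was larger in KO, so values of this class here and below depend on the mix. AT2-like cells, with 13696 and 14085 CPM, lay above the median over classes of 8294 and 12278 CPM. The lowest named class in both libraries was cycling immune cells with 3903 and 3643 CPM, near lymphatic-like cells (WT, 4471 CPM), while cycling epithelial cells were at 7585 CPM in KO. Some clusters without a name were lower, such as 1 of immune cells (1515 WT cells) at 790 CPM over both libraries. The highest named class was 6.68 times the lowest in WT and 8.49 times in KO. In this order 19 of 23 neighbouring classes in WT and 13 of 17 in KO had intervals that did not overlap. Such intervals narrow as UMIs rise, and the same count was not taken over all genes, so it does not rank the members.

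**Figure D1:**
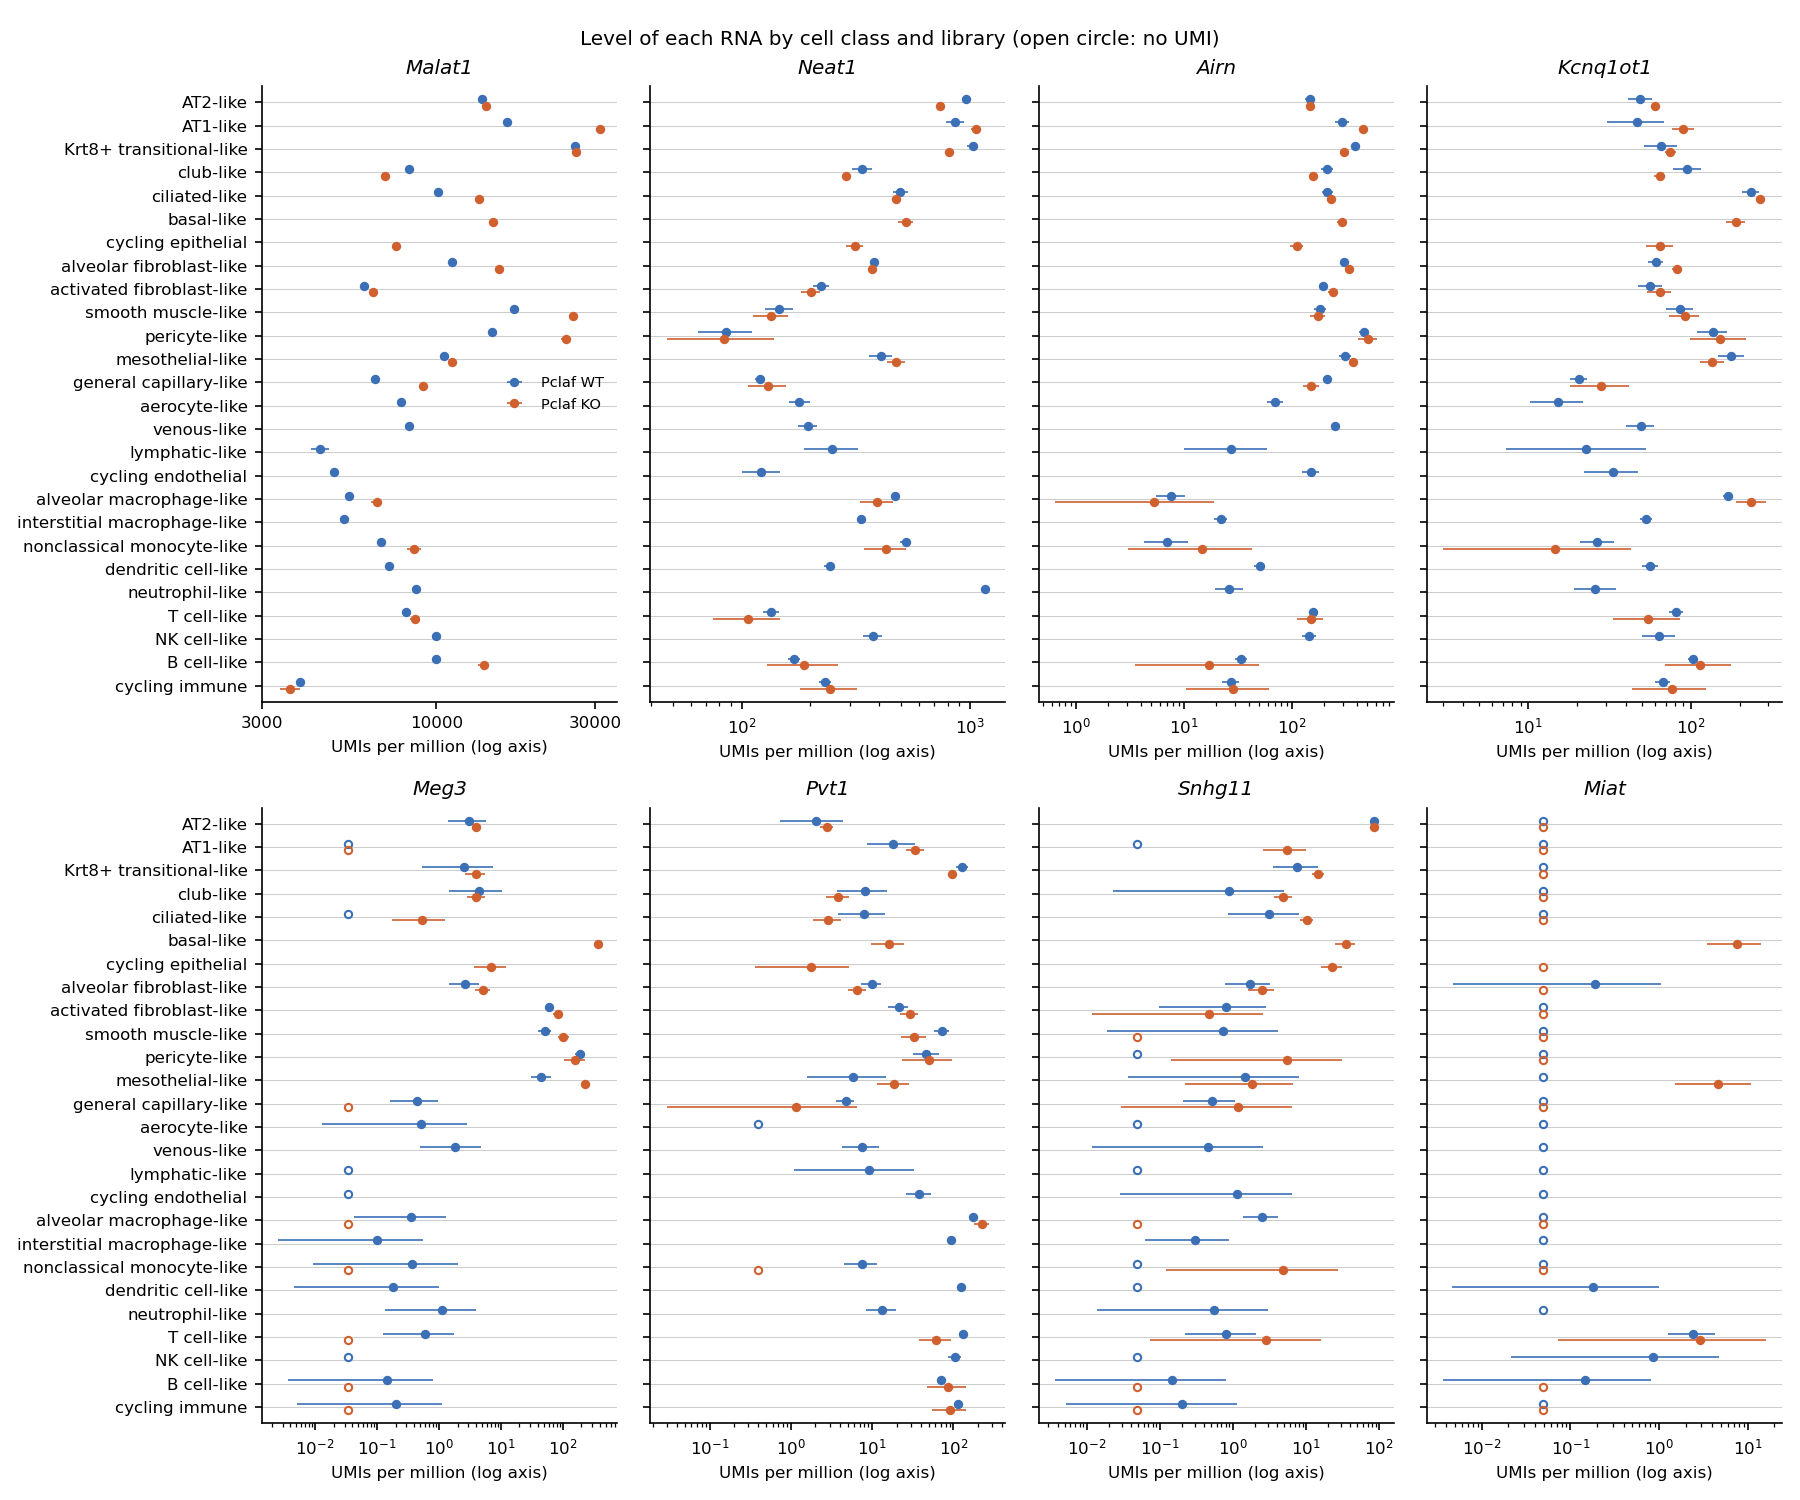
CPM of each of the 8 RNAs (log axis, 1 panel per gene) in 26 named classes of at least 50 cells, in the WT library and the library labelled KO, with 95% Poisson intervals. Open circles mark classes without a UMI. *Malat1* stays within a range of less than 9-fold, whereas *Snhg11* stands out in AT2-like cells and *Meg3* in mesenchymal, mesothelial-like and basal-like cells.

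*Neat1* ordered the classes differently. Neutrophil-like cells of WT were highest at 1167 CPM (1118 to 1218), followed by the alveolar epithelium. Krt8+ transitional-like cells were at 1031 CPM in WT and at 814 CPM in the library labelled KO, with AT2-like cells at 967 and 745, and AT1-like cells at 867 and 1065. Monocyte-like cells named nonclassical (525 and 428 CPM), ciliated-like cells (497 and 477) and alveolar macrophage-like cells (472 and 391) came next. The nonclassical monocyte-like class, of 968 WT cells, had a marker of classical monocytes among its leading genes. With more principal components, a nonclassical cluster of 519 WT cells and a classical one of 475 were named. Values of this class here and below can therefore cover both kinds. General capillary-like cells (120 and 130 CPM), smooth muscle-like cells (146 and 135) and pericyte-like cells (85.4 and 83.9) were low, although smooth muscle-like and pericyte-like cells were among the richest in *Malat1*. The range was 13.7-fold in WT and 12.7-fold in KO. Of neighbours in the order, 3 of 23 and 4 of 17 were apart beyond counting error, from fewer UMIs than for *Malat1*.

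The antisense imprinted RNAs had patterns of their own. *Kcnq1ot1* was highest in ciliated-like cells, at 233 CPM in WT and 265 in KO, where 55.8% and 66.3% of cells had a UMI at a median of 5749.5 and 7238 UMIs. In aerocyte-like cells of WT, at 15.2 CPM the lowest class there, 4.95% of cells had one at a median of 3087 UMIs. Mesothelial-like (177 and 136 CPM), alveolar macrophage-like (168 and 235) and basal-like cells (KO, 189) were also high. At these lower UMI counts no pair of neighbours in the order was apart in either library. *Airn* was highest in pericyte-like cells (469 and 509 CPM) and lay between 294 and 459 CPM in AT1-like, mesothelial-like, alveolar fibroblast-like and Krt8+ transitional-like cells of both libraries. It was almost missing from alveolar macrophage-like cells (7.66 CPM from 43 UMIs, and 5.28 from 2) and nonclassical monocyte-like cells (7.03 CPM from 19 UMIs, and 14.6 from 3). In both libraries the range of *Airn* over classes was the widest among members seen in every class, at 66.7-fold in WT and 96.3-fold in KO.

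The genes around these loci were counted beside them. *Igf2r*, the receptor that *Airn* overlaps, was at 84.4 and 75.6 CPM in the epithelium, 86.7 and 103 in mesenchyme, 56.2 and 51.5 in endothelium and 23.7 and 28.3 in immune cells, so both were lowest in the immune lineage. *Slc22a3*, a transporter silenced by *Airn* in placenta, was at 20.1 CPM in WT and 35.5 in KO in mesenchyme and below 1 CPM in the other lineages. *Kcnq1*, the potassium channel gene that holds *Kcnq1ot1*, was highest in endothelium (83.1 and 71.3 CPM), where *Kcnq1ot1* was low in capillary-like cells (20.5 and 28.1). *Cdkn1c*, a cell cycle inhibitor of the same cluster, was at 26.9 and 50.4 CPM in mesenchyme. *Dlk1*, which with *Dio3* bounds the *Meg3* domain, had 0 UMIs in mesenchyme of both libraries, and *Dio3* was at 1.77 and 0.556 CPM there.

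*Meg3* and *Snhg11* marked cell types. *Meg3* was at 33.8 CPM in mesenchyme of WT (420 UMIs) against 0.284 CPM in immune cells (13 UMIs), a log2 ratio of 6.90 (6.11 to 7.82). In KO it was at 41.5 CPM (598 UMIs) against 0 UMIs in immune cells, which gives a log2 ratio of at least 4.80 against a floor of 3 counts. Within mesenchyme, pericyte-like cells (187 and 157 CPM), smooth muscle-like cells (51.7 and 102) and activated fibroblast-like cells (61.0 and 82.5) carried it and alveolar fibroblast-like cells hardly did (2.65 and 5.14). The activated fibroblast-like class had markers of adventitial fibroblasts among its leading genes. With another random draw of KO cells, a similar cluster of 325 WT and 330 KO cells was named adventitial fibroblast-like. Values of this class here and below can therefore cover both kinds. The highest level of *Meg3* among the named classes was in the 155 basal-like cells of KO, at 374 CPM (447 UMIs), where 28.4% of cells had a UMI at a median of 6777 UMIs, against 1.34% of AT2-like cells of that library at a median of 6773 UMIs. Basal-like cells of WT were too few to form a class.

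*Snhg11* was a gene of AT2-like cells in both libraries, at 84.4 CPM in WT (251 UMIs, 74.3 to 95.5) and 84.3 in KO (4080 UMIs). In WT 28.1% of AT2-like cells had a UMI at a median of 4543.5 UMIs, against 0.111% of general capillary-like cells at a median of 1789.5 UMIs, and in KO 37.6% had one. Basal-like (35.2 CPM) and cycling epithelial cells (22.9) of KO and Krt8+ transitional-like cells (7.67 in WT and 14.8 in KO) were next. AT1-like cells of WT had 0 UMIs, which allows up to 5.42 CPM, and those of KO had 10 UMIs (5.46 CPM). Its total in the KO library is thus carried by the 6857 AT2-like cells there, against 654 in WT.

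*Pvt1* was highest in several immune classes and in Krt8+ transitional-like cells. Alveolar macrophage-like cells had most, with 172 CPM in WT and 222 in KO, and it was at 129 and 95.7 in Krt8+ transitional-like cells and at 131 and 60.6 in T cell-like cells. Dendritic cell-like (122 CPM), NK cell-like (105) and interstitial macrophage-like cells (93.6) of WT were close to these. AT2-like cells were near the bottom with 2.02 and 2.75 CPM, and aerocyte-like cells of WT had 0 UMIs, which allows up to 1.52 CPM. Not every immune class carried it, since nonclassical monocyte-like cells were at 7.40 CPM in WT (20 UMIs) and had 0 UMIs in KO, which allows up to 14.6 CPM. *Myc*, beside *Pvt1*, was at 15.3 and 14.9 CPM in immune cells. *Miat* gave 12 UMIs in T cell-like cells of WT (2.43 CPM), 9 in basal-like (7.54 CPM) and 5 in mesothelial-like cells of KO (4.65 CPM), and had no UMI in 19 of 24 classes in WT and 15 of 18 in KO.

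Over 50 profiles, each 1 class or unnamed cluster of at least 100 cells in 1 library, the genes whose level followed each member most closely were looked up among 11783 genes with at least 1000 UMIs (Pearson r of log2(CPM + 10), a description over profiles that share 2 libraries). For *Malat1* these were *Akap8l* (r = 0.77), which encodes a nuclear anchoring protein, *Gm20732* (0.76) and *Pabpn1* (0.75), the nuclear poly(A)-binding protein. For *Neat1* they were the adhesion gene *Alcam* (0.79), *Fgd4* (0.79) and *Rab11fip1* (0.77), and for *Kcnq1ot1* the kinesin gene *Kif16b* (0.78), *Ttll5* (0.76) and *Xrcc5* (0.75). *Airn* was followed most closely by *Igf2r* (0.89), the gene it overlaps on the opposite strand, then by *Farp1* (0.86) and *Rab11fip2* (0.80). *Snhg11* was followed by *Bex2* (0.97), *Gm20629* (0.97) and *Gm39094* (0.96), *Meg3* by *Lgr4* (0.81), *Id4* (0.80) and decorin, *Dcn* (0.80), and *Pvt1* by the nucleolar gene *Gnl3* (0.77), *Gna15* (0.76) and *Psmd14* (0.75). Among members, *Malat1* followed *Airn* (0.66), *Kcnq1ot1* (0.60) and *Neat1* (0.59). *Miat* had too few UMIs for this.

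Cells without *Malat1* were then counted. Every cell of at least 1000 UMIs was thinned to 1000 UMIs, so that deep and shallow cells could be compared, and 22746 WT and 14503 KO cells remained. The depths are uneven, since 24.6% of WT and 7.25% of KO cells fall below that limit. Of these cells, 2383 of WT (10.5%) and 1516 of KO (10.5%) had no *Malat1* UMI. Without thinning and at any depth the shares were 22.5% and 10.3%. In the epithelium the share was 13.9% in WT (226 of 1628 cells, 12.2 to 15.7) and 11.6% in KO (1266 of 10923), and 12.3% and 10.5% had no UMI of any of the 8. In mesenchyme it was 18.9% in WT and 6.95% in KO, in endothelium 12.1% and 9.75%, and in immune cells 7.71% and 7.39%.

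The share depended strongly on the class. It was 42.1% in AT1-like cells of WT (51 of 121) and 20.2% in KO (66 of 327), 31.3% and 36.7% in club-like cells, and 36.0% and 20.9% in activated fibroblast-like cells. Lymphatic-like cells of WT (39.2%), cycling immune cells (28.6% and 33.3%) and alveolar macrophage-like cells (23.9% and 20.9%) were also high. The lymphatic-like class, of 135 WT cells, depended on the clustering. With another random draw of KO cells, 44 WT cells were named lymphatic-like, and a shallow cluster of 111 WT cells (median 802 UMIs) venous-like. Which cells moved was not followed, so values of the lymphatic-like class throughout can depend on the draw. Alveolar fibroblast-like cells had 21.7% in WT and 5.28% in KO. At the other end were neutrophil-like cells (WT, 0.393%), B cell-like cells (0.707% and 1.54%), NK cell-like cells (WT, 1.77%) and smooth muscle-like cells (4.30% and 0.505%). AT2-like cells had 10.4% and 8.14%. AT1-like cells of WT were thus at once among the named classes richest in *Malat1* by sum and the named class with the highest share of cells lacking it. In the immune cluster without a name, 141 of 218 WT cells of at least 1000 UMIs had no *Malat1* UMI even before thinning.

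**Figure D2:**
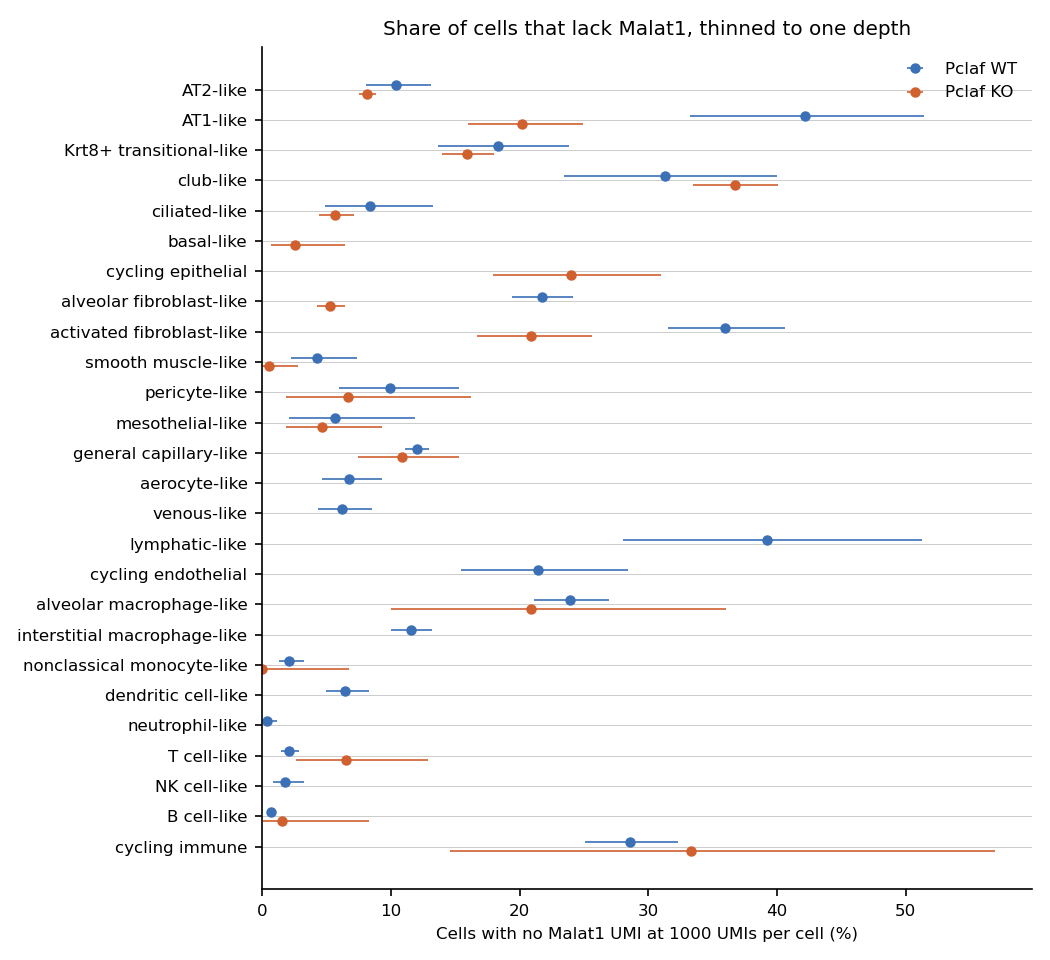
Share of cells without a *Malat1* UMI (percent, x axis) after thinning to 1000 UMIs, by class and library, with exact binomial 95% intervals. AT1-like cells of WT reach 42.1%, whereas neutrophil-like and B cell-like cells of WT stay below 1%.

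In most groups given here *Neat1* was missing more often from cells without *Malat1*. The other members were not set out in this way. In the epithelium 7.96% of WT and 6.79% of KO cells without *Malat1* had a *Neat1* UMI after thinning, against 50.9% and 45.5% of the cells with *Malat1*. In WT the same gap was 6.77% against 13.6% in endothelial and 5.17% against 27.6% in mesenchymal cells. In T cell-like cells of WT there was hardly any, with 12.8% against 13.1%. The distribution of *Malat1* over epithelial cells of at least 1000 UMIs was spread out, with 10.5% of WT and 7.4% of KO cells at 100 CPM or less and 11.2% and 11.4% above 32000 CPM, while immune cells of WT rarely passed 32000 CPM (0.291%).

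**Figure D3:**
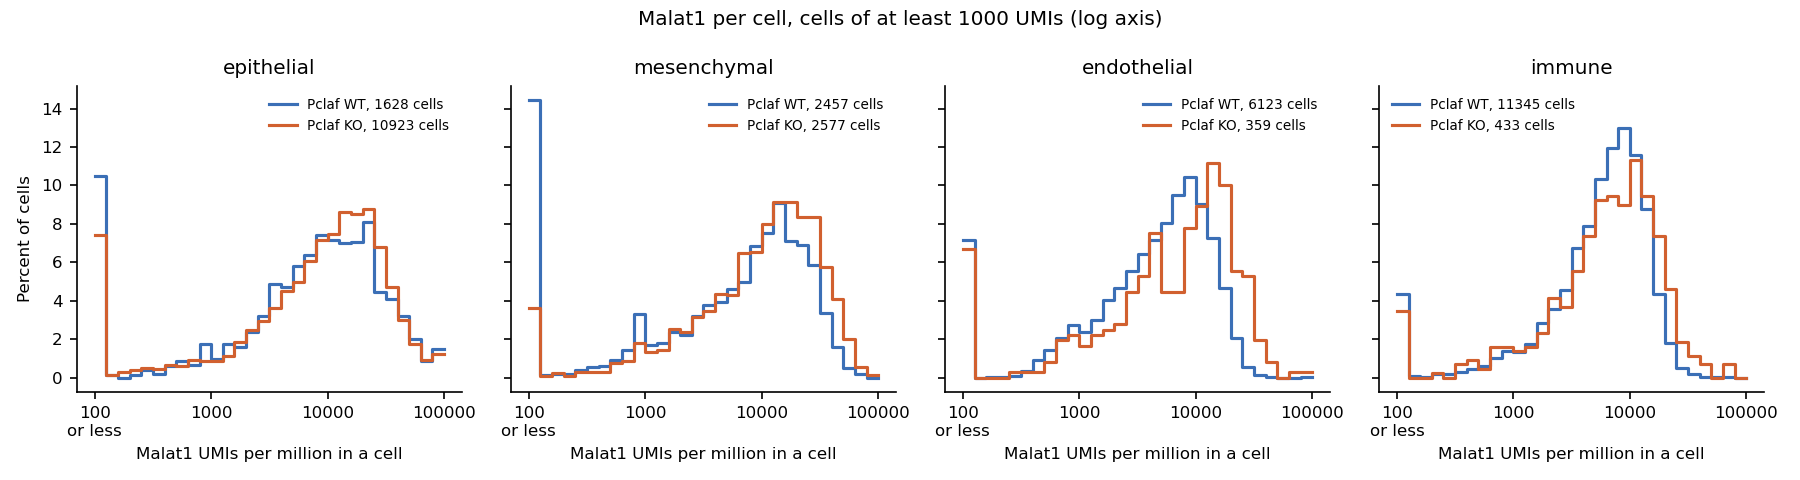
Distribution of *Malat1* over cells of at least 1000 UMIs, by lineage and library. The x axis gives *Malat1* CPM of a cell on a log scale, with all cells of 100 CPM or less in the first bin, and the y axis the percent of cells. The first bin holds 10.5% of WT and 7.4% of KO epithelial cells.

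AT2-like cells of KO held the most cells of at least 1000 UMIs without any of the 8, 308 against 6465 others. Their members were set by the choice, which was made without thinning and so also favours cells of few UMIs. Other genes did not enter the choice, but depth was not matched in this contrast. Among genes with at least 50 UMIs, those with the highest fold were *Retnla* (1391 against 168 CPM), a secreted protein of injured lung, the histone genes *Hist1h2ap* and *Hist1h2ae*, *Lcn2* (5833 against 1664 CPM), an acute-phase protein, and the ferritin gene *Fth1* (6787 against 2152 CPM). The lowest were *Pde4d* (12.4 against 1569 CPM), *Nckap5* (22.5 against 1351), *Ank3* (71.0 against 2962) and *Mecom* (27.0 against 1346), then *Xist* (5.63 against 472 CPM), another RNA that stays in the nucleus. *Retnla* was also among the leading genes of the club-like clusters, and the part of airway RNA or of naming in these barcodes was not tested. The loci of the first 4 of the lowest genes span 1504, 917, 629 and 597 kb, whereas the 5 highest span at most 4.501 kb.

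Since that contrast of long and short loci was seen in these data, it was measured in all classes afterwards. In each of 40 pairs of a named class and a library, the *Malat1* share of a cell rose with the share of coding genes that span over 100 kb (Spearman rho 0.46 to 0.92, median 0.74, over cells of at least 1000 UMIs). It fell with the share of ribosomal protein genes in all 40 (rho -0.73 to -0.11, median -0.47). With a cell's UMIs the relation was weak and mostly positive (33 of 40, median 0.16, from -0.33 in nonclassical monocyte-like cells of KO to 0.66 in AT1-like cells of WT), and with its genes likewise (35 of 40, median 0.20). *Malat1* and *Neat1* shares went together in 35 of 40 (median 0.29), most in AT1-like cells of WT (0.79) and least in smooth muscle-like cells of KO (-0.11). Cells of 1 library share its depth and free RNA, so these are descriptions.

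The mitochondrial share had no common relation to *Malat1*. Over the 40 pairs rho was above 0 in 18 and below 0 in 22, with a median of -0.01. In club-like cells *Malat1* rose with the mitochondrial share (0.66 in 131 cells of WT, 0.65 in 863 of KO), as it did in AT2-like (0.43 in 597, 0.41 in 6773) and ciliated-like cells (0.42 and 0.39). In AT1-like cells it fell (-0.45 in 121 cells, -0.28 in 327), as in lymphatic-like cells of WT (-0.48 in 74). In alveolar fibroblast-like cells the libraries differed, with -0.40 in 1197 WT cells and 0.01 in 1819 KO cells.

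These directions can be followed in bins. AT2-like cells of KO with under 1% mitochondrial UMIs were at 1023 CPM of *Malat1* (241 cells, 62.2% without a UMI), those with 1 to 2% at 8480, 2 to 4% at 11592, 4 to 8% at 13531 and 8 to 20% at 18415 CPM (2152 cells, 2.37% without). In WT the 3 upper bins of AT2-like cells were at 9891, 13215 and 19664 CPM. Alveolar fibroblast-like cells of WT went the other way, from 17865 CPM at 1 to 2% down to 1821 CPM at 8 to 20%, where 74.9% of 1051 cells had no *Malat1* UMI, whereas those of KO stayed between 11117 and 15951 CPM. In the same WT class, cells under 1000 UMIs were at 762 CPM (1305 cells, 77.4% without) and those of 2000 to 4000 UMIs at 14947. A low mitochondrial share thus went with little *Malat1* in AT2-like cells, and a high one with little *Malat1* in alveolar fibroblast-like cells of WT.

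Clusters low in *Malat1* were found in 9 named classes, although no member was used to make the clusters. A cluster was called low, after its values were seen, where *Malat1* was at least 4-fold below the richest cluster of its class over both libraries. This gave 11 clusters and 16 pairs of class and library. Just inside the limit were a cluster of cycling immune cells (4.88-fold), one of activated fibroblast-like (5.43-fold) and one of Krt8+ transitional-like cells (6.52-fold), and just outside one of smooth muscle-like (2.57-fold) and one of general capillary-like cells (2.05-fold). They held 84.4% of AT1-like cells in WT and 41.2% in KO, 17.0% and 8.82% of AT2-like cells, 40.5% and 42.8% of club-like cells, 28.8% and 24.2% of Krt8+ transitional-like cells, 63.8% and 20.7% of alveolar fibroblast-like cells, and 27.9% and 29.7% of general capillary-like cells. Alveolar macrophage-like cells of WT had 60.2% there. Of the unnamed clusters, 3 had a similar level of 790 to 1758 CPM and were not used. Which classes held such clusters depended on the clustering. With another random draw of KO cells, a shallow cluster of 1108 WT cells (median 676.5 UMIs) was named interstitial macrophage-like. Another of 238 WT cells (median 665 UMIs) was named aerocyte-like. With all cells clustered, a shallow AT1-like cluster (medians 736.5 and 1043 UMIs) held 362 WT and 514 KO cells, against 52 and 220 in the other. No shallow cluster was then named Krt8+ transitional-like. Values and ratios of AT1-like and Krt8+ transitional-like cells throughout can depend on this split. The *Malat1* level of these clusters is not given here.

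Low clusters were shallow. AT1-like cells there had a median of 701.5 UMIs in WT against 4718 in the other AT1-like cells, and 916 against 6119.5 in KO. For AT2-like cells the medians were 1005 against 4958 and 2232 against 7147, and for Krt8+ transitional-like cells 888 against 4473 and 1136 against 5925. Their other members were low too. The choice had not used these, but *Neat1* and *Malat1* shares went together from cell to cell in the same classes. In WT, rho was 0.79 in AT1-like and 0.49 in AT2-like cells. A low *Neat1* is thus not separate from the choice. *Neat1* was at 134 CPM in the low AT2-like cluster of WT against 1006 in the others (log2 -2.91), and at 73.7 against 767 in KO (-3.38). In AT1-like cells it was at 152 against 1541 CPM and at 270 against 1179.

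Over the 16 pairs, *Neat1* was at least 2-fold lower in 16 (median log2 -2.97), *Kcnq1ot1* in 16, *Airn* in 15 and *Pvt1* in 10 of the 13 with enough UMIs. *Pvt1* was at least 2-fold higher in 1, general capillary-like cells of WT (18 and 46 UMIs, log2 1.65, where 10.1% of genes were that much higher). *Meg3* was at least 2-fold lower in 6 and *Snhg11* in 5 of the 7 pairs with enough UMIs for each, and *Miat* in none for want of UMIs. Many genes were also lower there: the share of all tested genes at least 2-fold lower was 45.5% in AT2-like cells of WT, 60.4% in KO, 26.8% and 32.5% in AT1-like, 41.9% and 53.7% in Krt8+ transitional-like, 30.8% and 40.9% in alveolar fibroblast-like, 53.9% and 69.5% in club-like, 25.2% and 36.1% in general capillary-like and 21.9% and 28.4% in activated fibroblast-like cells, 33.3% in alveolar macrophage-like cells and 28.6% in cycling immune cells of WT. Lower counts of members must be read against those shares, and in club-like cells of KO most genes were lower.

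Lists of related genes moved unequally in the same clusters. Other nuclear long noncoding RNAs (such as *Xist*, *Tug1* and *Ftx*, summed) were lower in 16 of 16 pairs, in 13 at least 2-fold, and messenger RNAs known for nuclear retention (such as *Clk1* and *Nktr*) in 16, in 11 at least 2-fold. Genes of paraspeckle proteins were lower in 15 but at least 2-fold in only 3, and those of nuclear speckle proteins in 14 and 4. Coding genes spanning over 100 kb were lower in 16 (at least 2-fold in 12), Y-linked genes in 16 (13, median log2 -1.43) and the neighbours in cis in 16 (7). Ribosomal protein genes were higher in 16, snoRNA host genes in 15 and coding genes of at most 10 kb in 16. Mitochondrial genes were higher in 13 pairs and lower in AT2-like cells of KO (log2 -1.01) and club-like cells of WT (-0.82) and KO (-1.27).

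**Figure D4:**
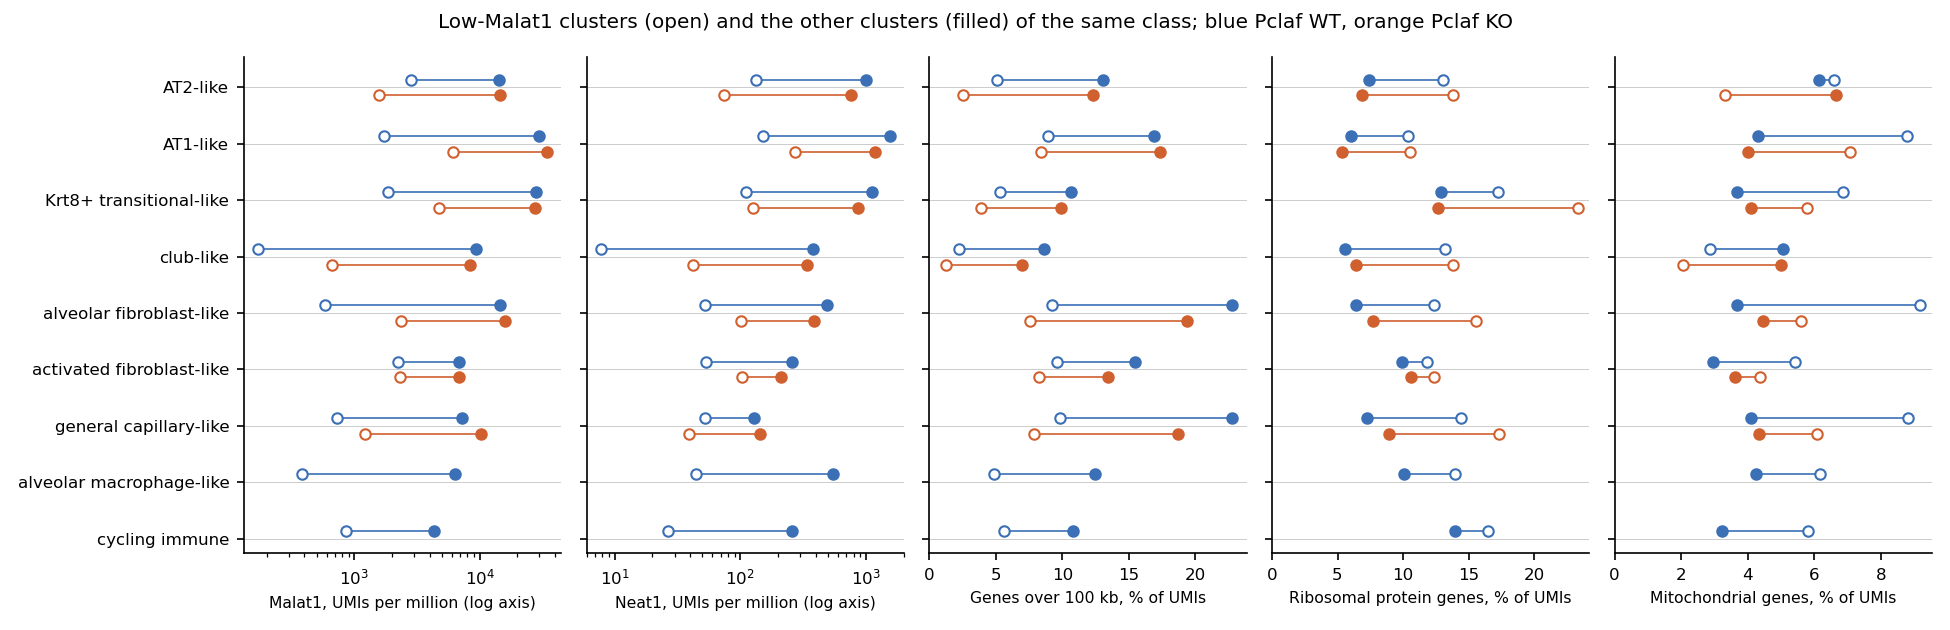
Low-*Malat1* clusters (open symbols) and the other clusters (filled symbols) of 9 classes in both libraries, with 1 panel each for *Malat1*, *Neat1*, the mitochondrial genes, the ribosomal protein genes and the coding genes over 100 kb. The groups separate in every pair for *Neat1* and for long genes, while mitochondrial genes lie on either side.

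The genotypes were compared within 16 named classes that had at least 50 cells in both libraries. In AT2-like cells *Malat1* was at 13696 CPM in WT and 14085 in KO, a log2 ratio of 0.04 (0.03 to 0.05), and of -0.045 with another random draw of KO cells for the clustering. *Neat1* was at 967 and 745 CPM (-0.38, -0.43 to -0.32), *Kcnq1ot1* at 48.8 and 60.3 (0.31, 0.07 to 0.56), *Airn* at 147 and 147 (0.00, -0.14 to 0.15) and *Snhg11* at 84.4 and 84.3 (0.00, -0.19 to 0.19). *Meg3* had 9 and 196 UMIs and *Pvt1* 6 and 133, with intervals that include 0. None of the 7 members tested passed 2-fold, where 16.2% of all 15355 genes tested did, and the median of all genes was -0.16. Scaling by TMM would raise every value of these cells by 0.15, so the ratios of *Malat1* and *Neat1* are to be read relative to such a shift.

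Lists of related genes were as flat in AT2-like cells. None of 10 genes of paraspeckle proteins passed 2-fold (median -0.20), with *Sfpq* at 172 and 142 CPM, *Hnrnpk* at 235 and 197 and *Tardbp* at 109 and 85.6. None of 12 genes of nuclear speckle proteins did (median -0.13), with *Son* at 272 and 332 CPM and *Srrm2* at 297 and 291. The same held for 10 nuclear-retained messenger RNAs (median -0.23; *Ddx5* at 540 and 455 CPM, *Rbm39* at 345 and 323), for 5 other nuclear long noncoding RNAs (0.17; *Xist* at 327 and 463 CPM, *Gm26917* at 70.9 and 55.4) and for 4 snoRNA host genes (-0.20). Of 7 neighbours in cis (median 0.03) only *Myc* passed it, from 2 and 84 UMIs, while *Igf2r* was at 59.2 and 60.5 CPM and *Kcnq1* at 44.7 and 50.6. Of 4 Y-linked genes 2 were lower, *Ddx3y* (log2 -1.32) and *Kdm5d* (-1.13). Over all kept cells 4797 in WT and 7679 in KO had *Xist* UMIs without Y-linked ones, and 8903 and 3010 the reverse. The mixture of these cells thus differs between the libraries along with genotype, and the 2 cannot be told apart in any ratio here.

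*Malat1* was higher in KO in 14 of the 16 classes (median log2 0.31), from -0.25 in club-like to 0.93 in AT1-like cells, and passed 2-fold in none. *Neat1* was lower in 11 of 16 and passed 2-fold in none (-0.38 to 0.30). Of 96 pairs of a member and a class with at least 10 UMIs, 6 were higher and 7 lower by 2-fold. Over the same 16 classes 6.33% of all 196408 pairs of a gene and a class were 2-fold higher and 13.7% were 2-fold lower. *Meg3* was higher in mesothelial-like cells of KO, with 31 UMIs in WT (45.3 CPM) and 243 in KO (226 CPM; log2 2.32, 1.77 to 2.91), where 7.09% of genes were 2-fold higher. *Pvt1* was lower in 6 classes. In T cell-like cells it had 646 UMIs in WT and 21 in KO (log2 -1.11, -1.81 to -0.48; 22.7% of genes were 2-fold lower), and in smooth muscle-like cells 97 and 32 (-1.12, -1.75 to -0.53; 8.76%). The smooth muscle-like clusters had unequal shares in the libraries, and the part of this in the ratio was not tested. In general capillary-like (12.8%), nonclassical monocyte-like (23.3%), ciliated-like (8.88%) and club-like cells (9.07%) the lower *Pvt1* rested on at most 38 UMIs in KO.

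The other calls rest on few molecules. *Snhg11* was higher in AT1-like (0 and 10 UMIs; 9.15% of genes), ciliated-like (4 and 97; 6.60%) and club-like cells (1 and 49; 7.54%) of KO, while AT2-like cells, its main source, numbered 654 in WT and 6857 in KO, and the part of free RNA in this was not tested. It was lower in alveolar macrophage-like cells (14 and 0 UMIs; 19.7%). *Pvt1* was higher in mesothelial-like cells (4 and 20 UMIs) and *Airn* in nonclassical monocyte-like cells (19 and 3 UMIs; 6.30%), with an interval of -1.34 to 2.82.

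Ratios between libraries differed between whole classes and the clusters outside the low ones. *Malat1* had chosen the low clusters, and these held unequal shares of the libraries. AT1-like cells numbered 324 in WT and 174 in KO inside, and 60 and 248 outside. A shift of the *Malat1* ratio was thus partly set by that choice. *Neat1* did not enter the choice but was low in the same clusters. In AT1-like cells *Malat1* was at 29985 CPM in WT and 34455 in KO outside the low cluster (log2 0.20, against 0.93 for the whole class), and *Neat1* was at 1541 and 1179 (-0.39, against 0.30). In alveolar fibroblast-like cells the ratio of *Malat1* went from 0.47 to 0.14 and that of *Neat1* from -0.04 to -0.34. In AT2-like cells they stayed at 0.031 and -0.39, and in Krt8+ transitional-like cells *Neat1* was at 1116 and 867 CPM (-0.36). Outside the low clusters *Neat1* was thus lower in KO in AT1-like, AT2-like, Krt8+ transitional-like, club-like, alveolar fibroblast-like and activated fibroblast-like cells, with an interval that reached 0 in club-like cells, and at 128 and 142 CPM in general capillary-like cells (0.15, -0.15 to 0.43). The median log2 ratio of all genes, taken over whole classes, was 0.05, -0.16, -0.08, -0.25, -0.05 and -0.07 in the first 6 of these, in that order. In club-like cells *Neat1* (-0.15) was above that median.

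**Figure D5:**
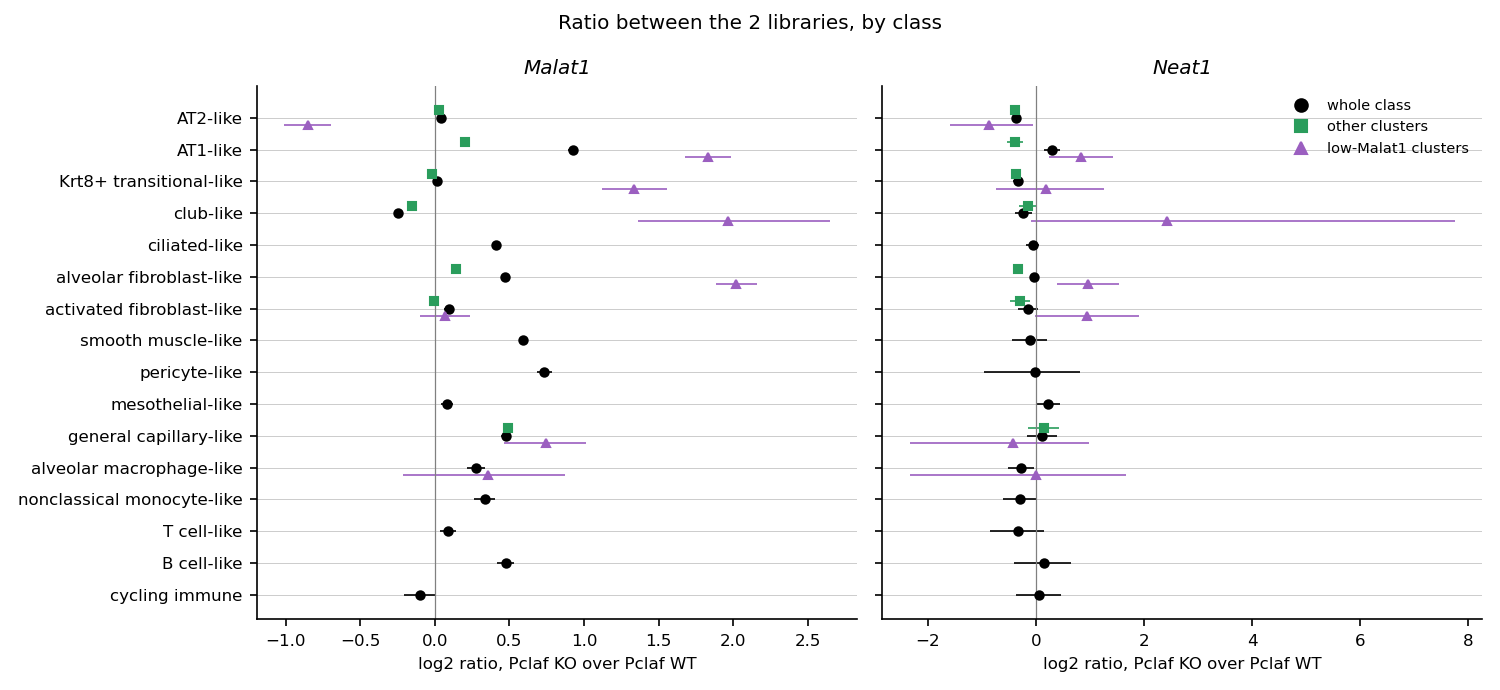
Log2 ratio of *Malat1* and of *Neat1*, KO over WT, by class, with 95% intervals of counting error. Black circles stand for the whole class, green squares for its other clusters and purple triangles for its low-*Malat1* clusters. For AT1-like cells the *Neat1* ratio is 0.30 in the whole class and -0.39 outside the low cluster.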

How the data were processed

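Single lung cells were measured in 1 library per genotype. What the authors deposited are UMI counts, raw and not normalized, of 31053 genes in each barcode. The submitters' processing notes name Cell Ranger 3.1.0, STAR and GRCm38 (mm10), and the matrix headers Cell Ranger 5.0.0. In total there were 98171818 UMIs over 30669 barcodes for *Pclaf* WT, 111267567 UMIs over 17172 barcodes for *Pclaf* KO, and no barcode under 500 UMIs. No column was left unmapped.

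The members, gene lists and measures were chosen with earlier results of these data known. Barcodes with more than 200 and fewer than 5000 genes and under 20% mitochondrial UMIs were kept. Cells were log-normalized to 10000, with 2000 variable genes that left out the members, mitochondrial genes, *Xist* and Y-linked genes, 10 principal components, 20 neighbours and Leiden clustering at a resolution of 0.8 (leidenalg 0.10.2). All WT and a random 1 in 6 KO cells were clustered, the other KO cells took the majority of their 20 nearest cells, and each lineage was clustered again. Names needed 3 detected markers. Doublets were called by Scrublet (8.81% of WT and 3.12% of KO cells) and were kept in the main values.

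UMIs were summed per class and library. Intervals are exact at 95% (Poisson, conditional for ratios, Clopper-Pearson for shares) and cover counting error only. A zero was read as at most 3 counts. With 1 library per genotype there is no test, and a gene counts as past 2-fold with at least 10 UMIs over both libraries. Thinning drew 1000 UMIs per cell. The interval code and thinning were tested on simulated data. Named are all members, for each the 3 genes closest in level, the 5 highest and 5 lowest genes of cells lacking all 8, and from each gene list those past 2-fold in AT2-like cells and up to 4 others by UMIs. A gene that this rule names is not reported here. Of the lists, 7 of 10 other nuclear long noncoding RNAs and 4 of 11 snoRNA host genes matched the files. The split by low *Malat1* and the measure of genes over 100 kb (2489 genes) were added after seeing the data.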

Additional observations from a re-analysis of the deposited data

Results flagged for a closer look

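In AT2-like cells the mitochondrial genes stood on opposite sides between the libraries. In the low-*Malat1* cluster over the others their log2 ratio was 0.10 in WT (65712 against 61339 CPM) and -1.01 in KO (33094 against 66587 CPM). The difference between libraries was not tested.

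In 5 cases a member had opposite directions, KO over WT, inside and outside the low-*Malat1* clusters of 1 class, with both intervals clear of 0 and the difference not tested. The cases were picked from all members in the classes with both kinds of cluster. How often other genes turn in this way was not counted, so nothing particular to the members follows. For *Neat1* in AT1-like cells the log2 ratio was 0.83 in the low cluster, from 41 and 62 UMIs, and -0.39 outside it. For *Neat1* in alveolar fibroblast-like cells it was 0.97 (67 and 45 UMIs) and -0.34, and for *Airn* there 1.10 (34 and 25 UMIs) and -0.17. For *Malat1* in AT2-like cells it was -0.85 (382 and 2522 UMIs) and 0.031, and in club-like cells 1.97 (22 and 1216 UMIs) and -0.15. *Malat1* also chose these clusters, so its values there are a description.

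Barcodes outside the limits on genes and mitochondrial share entered no value of the report, only the alternative over all deposited barcodes, and they carried *Malat1*. Those with 20% or more mitochondrial UMIs were at 7500 CPM in WT (366 barcodes) and 16935 CPM in KO (1165 barcodes), and those with 5000 genes or more at 9120 CPM (99 barcodes) and 15494 CPM (303 barcodes). The 67 KO barcodes with 200 genes or fewer were at 269 CPM, from 19 UMIs.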

How the results depend on the processing

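No paired analysis was possible because each genotype has 1 library. The log2 ratio of *Malat1* in AT2-like cells, KO over WT (0.04), changed sign with a second random draw of KO cells (-0.045) and was 0.023 with at least 500 genes, 0.058 over all deposited barcodes, 0.016 at a resolution of 1.2, and 0.19 as a mean over cells and 0.19 with TMM factors. That of *Neat1* (-0.38) stayed below 0 throughout, at -0.30 with the second draw, -0.25 as a mean over cells and -0.23 with TMM factors. The share of epithelial cells without *Malat1* moved with the depth and with the cells included. In WT (13.9%) it was 31.8% over all cells thinned to 500 UMIs and 24.4% without thinning, and in KO (11.6%) 17.3% and 9.18%. Over the cells of at least 1000 UMIs alone, chosen after seeing the data, these were 18.9% and 10.5% in WT and 15.5% and 7.29% in KO. In KO it was also 12.6% under 10% mitochondrial UMIs and 9.75% with at least 500 genes. WT stood above KO in each of these settings, by gaps of unequal size. The rho of *Malat1* and mitochondrial shares in AT2-like cells of WT (0.43) was 0.36 under 10% mitochondrial UMIs and 0.29 with no minimum of UMIs. In KO (0.41) it was 0.34 under 10%, 0.34 with all cells clustered and 0.34 without the low-*Malat1* cluster, an alternative chosen after seeing the data. The ratio of *Meg3* in WT (6.90) was 6.06 as a mean over cells, which gave no value in KO. Of genes in AT2-like cells, 2486 were past 2-fold (45.5% of them higher), 737 with at least 50 UMIs (35.1% higher) and 8048 with no minimum (67.1% higher). Leaving out the barcodes found in both libraries, also chosen after seeing the data, moved none of these values beyond counting error. Depth limits *Miat*, *Meg3* and *Snhg11* outside their main classes, where few UMIs were counted.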

Other observations

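The share of *Neat1* in a cell had no common relation to the mitochondrial share either. Over 40 pairs of class and library rho was above 0 in 20 and below 0 in 20, from -0.46 in AT1-like cells of WT to 0.54 in club-like cells of KO, the classes where *Malat1* also went down and up. Club-like cells of KO with under 1% mitochondrial UMIs were at 325 CPM of *Malat1* (189 cells) and those with 8 to 20% at 17770 CPM (185 cells).

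AT2-like cells of WT under 1000 UMIs were at 1411 CPM of *Malat1*, those of 1000 to 2000 UMIs at 11042, of 2000 to 4000 at 14907, of 4000 to 8000 at 13608 and of 8000 or more at 14354 CPM. Above 2000 UMIs the level of these cells hardly moved with depth, whereas shallow ones held little. AT2-like cells of KO under 1000 UMIs were at 8156 CPM and those of 8000 or more at 13434 CPM. Cells under 1000 UMIs are left out of the shares thinned to 1000 UMIs.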
